A study of Mus musculus with 43 samples.

Results

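The genes described here are 10 feedback regulators of the ERK pathway, read in lungs of mice as transcripts that respond to receptor tyrosine kinase signalling: the Sprouty genes Spry1, Spry2 and Spry4, the Spred genes Spred1 and Spred2, the phosphatase genes Dusp4, Dusp5 and Dusp6, and the transcription factor genes Etv4 and Etv5. They were found by gene symbol. All 10 were in a table of 21938 protein-coding genes, and all 10 passed the filter on low counts that left 14836 genes for testing. The study sequenced polyA RNA of the inferior lung lobe in 3 groups. BLEO-IPF nintedanib (n = 17) were mice of a bleomycin model of idiopathic pulmonary fibrosis treated with nintedanib, an oral inhibitor of VEGF, FGF and PDGF receptor kinases, and are called nintedanib mice. BLEO-IPF vehicle (n = 16) were mice of the same model given the vehicle of nintedanib, and are called vehicle mice. CTRL vehicle (n = 10) were mice outside the bleomycin model given a vehicle that the labels do not name, and are called control mice. In comparisons with control mice, bleomycin and a change of vehicle therefore cannot be told apart. Strain, sex, age, dose, route and day are not in the labels, and each library was taken as 1 mouse, so the p-values reflect variation among these libraries and no more.

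In this pathway a ligand activates a receptor tyrosine kinase, which loads Ras with GTP, and Raf, MEK and ERK kinases are then activated in turn. ERK activity induces several of its own inhibitors, so that transcripts of Sprouty, Spred and Dusp genes are widely read as a sign of pathway output. Sprouty proteins act between the receptor and Raf, Spred proteins bring the Ras inactivator neurofibromin to the membrane, and DUSP proteins remove phosphate from ERK itself. ETV4 and ETV5, members of the PEA3 group of ETS factors, are targets and effectors of FGF signalling. In the lung, Sprouty genes limit branching driven by FGF10 in the embryo, and ETV5 supports the identity of surfactant-producing alveolar type 2 cells.

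Library totals were 13324549 to 18723538 counts in nintedanib mice, 13175246 to 19111457 in vehicle mice and 13138281 to 17812995 in control mice. Levels are in CPM, counts scaled to the size of each library with TMM factors, and log2 CPM carries a prior count of 2. All 10 members are protein-coding genes on the GRCm38 build. Dusp6 lies on chromosome 10 (99263231 to 99267489, plus strand), Etv4 on chromosome 11 (101769742 to 101785371, minus strand) and Etv5 on chromosome 16 (22381309 to 22439719, minus strand). Spry1, Spry4 and Dusp5 overlap short annotated transcripts of the opposite strand (Gm42922, Gm27369 with Gm27804, and AC137853.2), none of which is in the table. Whether reads were counted by strand is not given in the sources used here, so reads of those partners cannot be told apart from reads of the members. The library names fall into 3 number series, here A, B and C, with 13, 2 and 2 nintedanib mice, 11, 2 and 3 vehicle mice, and 9 control mice in A and 1 in C. Transcripts of the fat gene Adipoq reached 1 CPM in 5 of 17 nintedanib, 0 of 16 vehicle and 8 of 10 control libraries.

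ETS factors, among them ETV4 and ETV5, bind DNA around a GGAA core, so promoter sequence was read from RefSeq (GRCm38.p6). Each window ran from 250 bases before to 50 after the gene start. Windows of 7 of the 10 members were read, 8 in all. Spry4, Dusp4 and Etv4 were not read. For Spry4 this does not mean that RefSeq holds no entry. The 3 below belong to members that the comparisons turn on, and capitals mark every GGAA, or TTCC where the core lies on the other strand.
Dusp6 (chr10:99262981-99263280, + strand): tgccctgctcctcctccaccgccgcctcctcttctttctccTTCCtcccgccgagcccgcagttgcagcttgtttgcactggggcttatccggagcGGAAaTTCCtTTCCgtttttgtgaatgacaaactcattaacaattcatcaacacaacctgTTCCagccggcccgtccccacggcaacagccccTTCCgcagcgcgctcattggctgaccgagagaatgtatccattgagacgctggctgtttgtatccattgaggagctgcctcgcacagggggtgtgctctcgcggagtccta
Spred2 (chr11:19924192-19924491, + strand): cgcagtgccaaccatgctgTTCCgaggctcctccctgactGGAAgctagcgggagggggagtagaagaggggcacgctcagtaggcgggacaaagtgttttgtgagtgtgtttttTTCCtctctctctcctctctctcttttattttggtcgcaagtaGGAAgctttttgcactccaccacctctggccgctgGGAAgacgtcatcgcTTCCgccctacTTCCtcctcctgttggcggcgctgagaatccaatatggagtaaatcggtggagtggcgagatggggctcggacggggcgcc
Spry1 (chr3:37639697-37639996, + strand): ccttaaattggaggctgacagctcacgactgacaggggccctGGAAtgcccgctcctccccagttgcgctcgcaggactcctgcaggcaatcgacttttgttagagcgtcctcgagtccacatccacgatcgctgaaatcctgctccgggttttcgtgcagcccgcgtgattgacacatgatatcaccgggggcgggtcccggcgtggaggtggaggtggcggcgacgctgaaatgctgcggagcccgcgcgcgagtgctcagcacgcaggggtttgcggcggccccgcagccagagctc
The Dusp6 window held 6 cores, 3 of them clustered at positions -154, -149 and -144 from the gene start. The Spred2 window held 7 and the Spry1 window 1. Across the 7 members read, 7 of 8 windows held at least 1 core, and only the second Etv5 window held 0. The share over all 32851 promoter windows was 95.985%, so that a GGAA core is no mark of these genes. The longer ETS motif CCGGAAG, searched on both strands and containing the core, was in 0 of the 8 windows and in 8.858% of all windows. The AP-1 motif TGANTCA was in 0 of 8 and in 7.808%. These are matches of letters and say nothing of binding.

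Per kilobase of merged exons, which allows levels of different genes to be set side by side, Etv5 was the most abundant member in all 3 groups. In control mice its mean was 56.0 ± 5.94 CPM per kb (SD, n = 10). Dusp6 followed with 36.9 ± 3.69, Spry1 with 34.6 ± 2.28 and Spry2 with 26.4 ± 3.05 CPM per kb. A lower band held Spred1 (10.96 ± 0.621), Spred2 (9.21 ± 0.904), Dusp4 (8.17 ± 1.53), Spry4 (5.87 ± 1.19) and Dusp5 (4.46 ± 0.872 CPM per kb). Etv4 was close to silent, at 0.173 ± 0.0882 CPM per kb. Neighbours in this order whose control ranges overlapped were Dusp6 with Spry1, Spry1 with Spry2, Spred1 with Spred2, Spred2 with Dusp4, Dusp4 with Spry4, and Spry4 with Dusp5. The order changed among the low members in the other groups. Spry4 averaged 3.80 ± 1.42 CPM per kb in nintedanib mice (n = 17) and 7.63 ± 1.91 in vehicle mice (n = 16), so that it stood below Dusp5 (4.43 ± 1.30) in nintedanib mice and above Spred2 (7.12 ± 0.804) and Dusp4 (6.06 ± 1.17) in vehicle mice, with overlapping ranges in each case.

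**Figure D1:**
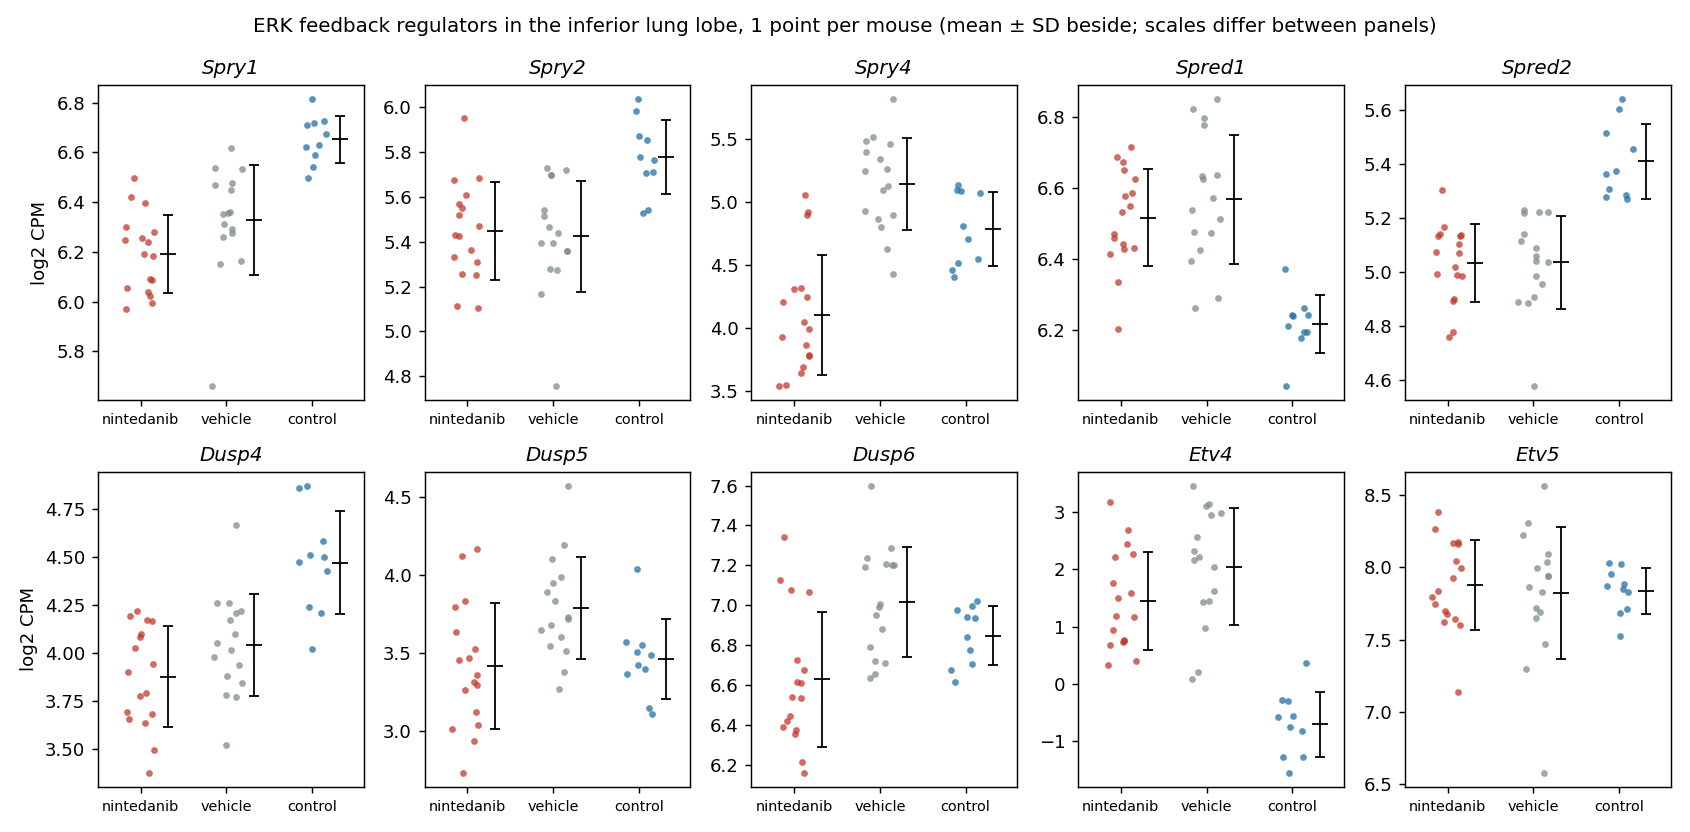
Level of each member in each mouse as log2 CPM (vertical axis; 1 panel a gene, 1 point a mouse, with the mean ± SD beside), for nintedanib mice (n = 17), vehicle mice (n = 16) and control mice (n = 10). In the Spry4 panel 14 of 17 nintedanib mice lie below every vehicle mouse, and in the Etv4 panel the bleomycin mice lie above nearly all control mice.

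The first comparison set nintedanib mice against vehicle mice and asked which feedback regulators differed with the treatment. Activity of the receptors and of ERK is not measured in these RNA data. Spry4, a Sprouty inhibitor induced by FGF and VEGF signalling, fell to about 0.497 of its vehicle level. Dusp6, the cytoplasmic phosphatase that acts on ERK, fell to 0.771 of it. No member rose. The 8 others did not pass the test, and Spry2, Spred2 and Etv5 had estimates close to 0. By edgeR's quasi-likelihood test with Benjamini-Hochberg adjustment over all tested genes (adjusted p under 0.05, called a change here), 2 of 10 members were called, both lower, where 7.31% of all tested genes were called, 3.21% higher and 4.1% lower. The median log2 fold change was -0.15 over the 10 members and -0.00215 over all tested genes, with 8 members negative and 2 positive. Unadjusted p was under 0.05 in 5 members. Such values were common over all genes: Etv4, with the largest of the 5 (p = 0.0294, edgeR), ranked 2795 by p among 14836 tested genes.

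Spry4 (chromosome 18, 38586247 to 38601415, minus strand) had 11.5, 15.8 and 33.2 CPM in nintedanib mice (lowest, median and highest), against 21.4, 36.4 and 56.2 CPM in vehicle mice. Every one of the 17 nintedanib mice was below the median of vehicle mice, and 14 were below the lowest vehicle mouse, so that the groups overlapped through 3 nintedanib mice alone. The log2 fold change was -1.01 ± 0.14 (SE, adjusted p = 7.94e-06, edgeR), and Spry4 ranked 8 by p among all tested genes. It kept its call in each of 43 fits that left out 1 library, with log2 fold changes from -1.09 to -0.96. Within the name series the difference in mean log2 CPM was -0.84 in A, -1.06 in B and -1.97 in C.

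Dusp6 had 71.5, 93.1 and 162 CPM in nintedanib mice, against 99.3, 128 and 194 CPM in vehicle mice. Below the vehicle median were 13 of the 17 nintedanib mice, and 11 were below every vehicle mouse. The log2 fold change was -0.37 ± 0.10 (SE, adjusted p = 0.0141, edgeR), and the difference was -0.29, -0.46 and -0.79 on the log2 scale in series A, B and C. With series A alone the change was -0.26 (adjusted p = 0.142), and without the libraries that held Adipoq it was -0.38 (adjusted p = 0.0582), so the call ended in both.

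Among the other phosphatases, Dusp5, a nuclear phosphatase specific for ERK, had 6.52, 10.1 and 17.8 CPM in nintedanib mice and 9.52, 13.1 and 23.6 CPM in vehicle mice. Its log2 fold change of -0.36 ± 0.12 was about as large as that of Dusp6 but missed the threshold (adjusted p = 0.0583, edgeR). It passed with DESeq2 (adjusted p = 0.041), with library totals in place of TMM factors (0.0345), and when any 1 of 6 libraries was left out (nintedanib 4 or 5, control 4, vehicle 10, 11 or 13; adjusted p = 0.0223 to 0.0474). Dusp4, a nuclear phosphatase of wider specificity, had a median of 14.8 CPM in nintedanib mice and 16.3 CPM in vehicle mice, with a log2 fold change of -0.17 (95% interval -0.35 to 0.02, adjusted p = 0.254).

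The other Sprouty and Spred genes stayed within narrow intervals. Spry1 had a median of 72.9 CPM in nintedanib mice and 81.7 CPM in vehicle mice, and 14 of 17 treated mice were under the median of vehicle mice. Its log2 fold change was -0.14 (95% interval -0.26 to -0.03, adjusted p = 0.118, edgeR), and the call was made with 2 surrogate variables (-0.21, adjusted p = 0.00476) or without vehicle replicate 4 (adjusted p = 0.0211). Spry2, at 43.03 CPM in nintedanib mice and 42.6 CPM in vehicle mice by the median, gave 0.02 (-0.13 to 0.17). Spred1 gave -0.06 (-0.16 to 0.05) and Spred2 -0.00 (-0.11 to 0.10). These intervals leave out a change of the size seen for Spry4 in each of the 4 genes.

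Etv4 had 1.13, 2.16 and 8.87 CPM in nintedanib mice, against 0.941, 4.40 and 10.8 CPM in vehicle mice, from a median of 37 counts in a nintedanib library and 77.5 counts in a vehicle library. Both groups spread widely and overlapped over nearly their whole range. The log2 fold change of -0.65 ± 0.29 had an adjusted p of 0.156 (edgeR) and an interval from -1.24 to -0.07, and its size went to -0.21 with 2 surrogate variables. By name series the difference in mean log2 CPM was -0.72 in A, 0.82 in B and -1.11 in C, so that the 4 mice of B went the other way. Etv5 had 141, 229 and 334 CPM in nintedanib mice, against 95.7, 239 and 378 CPM in vehicle mice, with a log2 fold change of 0.02 (95% interval -0.21 to 0.25, adjusted p = 0.937).

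Other genes of the pathway came from lists chosen around these members, and their counts stand beside the 7.31% of all tested genes called between nintedanib and vehicle mice. Of 15 further ERK output and feedback genes 3 fell and 0 rose, with a median log2 fold change of -0.22: the immediate early factors Egr1 (-1.03, adjusted p = 0.0227, edgeR) and Egr3 (-1.01, 0.00718), and the ephrin receptor gene Epha4 (-0.37, 0.00531). None of 7 other dual-specificity phosphatases of MAP kinases and neither of the relatives Spred3 and Etv1 passed. Of 21 genes of the Ras-ERK cascade 1 rose, Ptpn11 (0.18, adjusted p = 0.0444), which encodes the phosphatase SHP2 that carries signals from receptors to Ras. Of the 9 receptors that nintedanib inhibits, 2 had fewer transcripts, Flt4 (-0.47, adjusted p = 0.000351), the VEGF receptor of lymphatic vessels, and Pdgfrb (-0.40, 0.0296), a receptor of pericytes and fibroblasts, while Pdgfra rose (0.43, 0.0125).

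Of 10 lists of cell markers, that of fat moved most often between nintedanib and vehicle mice. Endothelial markers summed to a median of 2608 CPM (2083 to 3178) in nintedanib mice and 2556 CPM (1524 to 3785) in vehicle mice, and 2 of 9 were called lower. Markers of activated fibroblasts summed to 3651 CPM (1856 to 6811) in nintedanib mice and 4652 CPM (1623 to 13910) in vehicle mice, with 0 of 6 called. Macrophage markers summed to 12550 CPM (7751 to 18880) in nintedanib mice and 12450 CPM (8583 to 19250) in vehicle mice, with 0 of 6 called. Adipocyte markers summed to 9.04 CPM (2.42 to 923.6) in nintedanib mice and 5.18 CPM (1.88 to 13.5) in vehicle mice, with 4 of 5 tested called higher. Called higher were also 2 of 5 smooth muscle, 1 of 6 alveolar fibroblast and 1 of 8 airway markers, and 0 of 8 alveolar type 2, 0 of 6 alveolar type 1 and 0 of 7 lymphocyte markers were called. No marker of these lists was at 0 in a whole group. The part of cell makeup in the fall of Spry4 and Dusp6 was not tested, and in whole tissue fewer cells of a type cannot be told apart from less RNA per cell.

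**Figure D2:**
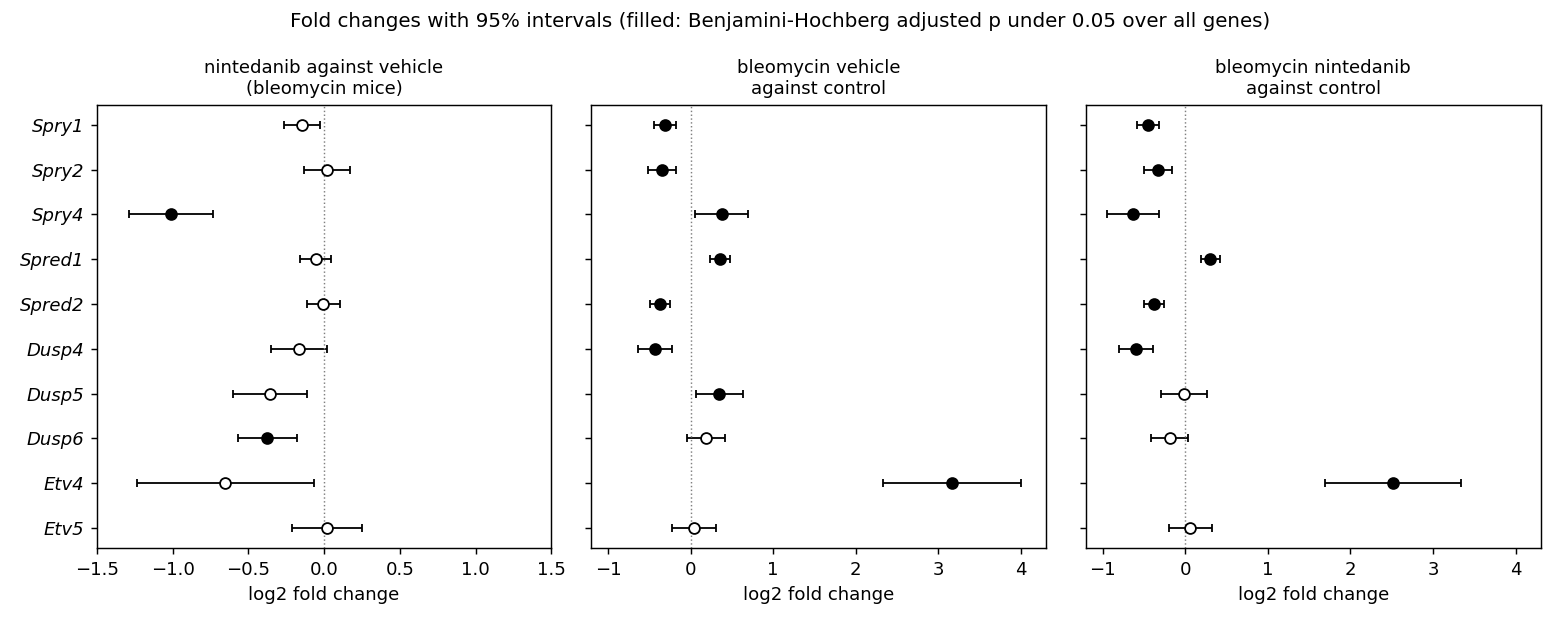
Log2 fold change of each member with its 95% interval (horizontal axis) in the 3 comparisons, with filled symbols for adjusted p under 0.05. Under nintedanib against vehicle only Spry4 (-1.01) and Dusp6 (-0.37) are filled. Against control the members lie on both sides of 0. Over all tested genes 29.5% were called higher and 28.3% lower in vehicle mice, and 28.1% and 25.1% in nintedanib mice.

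The second comparison, vehicle bleomycin mice against control mice, asked how the feedback genes stood in injured lungs. Members were called in both directions, as tested genes were at large: Etv4, Spred1, Spry4 and Dusp5 rose, and Spry1, Spry2, Spred2 and Dusp4 fell. Etv4 stood apart with a rise of 8.97-fold. Its control libraries held a median of 8 counts, under the filter's minimum count of 10, so that it passed the filter through the bleomycin groups. The size of its rise rests on those few control counts. The other 7 called members moved by 0.31 to 0.43 on the log2 scale in either direction. Of the 10 members 8 were called, 4 in each direction, at a background of 57.9% of all tested genes (29.5% higher, 28.3% lower), and their median log2 fold change was 0.11 beside -0.0061 over all tested genes.

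Etv4 had 0.941, 4.40 and 10.8 CPM in vehicle mice (lowest, median and highest), against 0.221, 0.514 and 1.16 CPM in control mice, where a library held 4 to 20 counts. All 16 vehicle mice lay above the control median and 14 lay above every control mouse. The rise was 3.17 ± 0.41 on the log2 scale (SE, adjusted p = 2.22e-08, edgeR). Without the libraries that held Adipoq, which leaves 2 control mice, it was 3.52 (adjusted p = 0.00677), and with 2 surrogate variables 2.12. Its relative Etv5, with 95.7, 239 and 378 CPM in vehicle mice against 185, 233 and 261 CPM in control mice, gave 0.04 (95% interval -0.22 to 0.31, adjusted p = 0.802). The vehicle mice lay on both sides of the control range for Etv5, 5 above every control mouse and 3 below.

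Spred2 fell in vehicle mice with no overlap between the groups, at 23.8, 33.01 and 37.4 CPM in vehicle mice against 38.5, 41.2 and 49.7 CPM in control mice. Its log2 fold change was -0.37 ± 0.06 (adjusted p = 1.67e-06, edgeR), and it ranked 1933 by p among all tested genes. How many other genes separated the 2 groups without overlap was not counted. Spred1, which shares the neurofibromin-binding role, went the other way, with 76.5, 93.8 and 115 CPM in vehicle mice against 65.7, 74.6 and 82.6 CPM in control mice. All 16 vehicle mice lay above the control median for Spred1 and 14 above every control mouse, with a log2 fold change of 0.36 ± 0.06 (adjusted p = 1.96e-06). The pair of Spred genes thus moved in opposite directions by similar amounts.

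Among Sprouty genes, Spry1 had 50.5, 81.7 and 98.2 CPM in vehicle mice against 90.3, 100.4 and 112 CPM in control mice, and its log2 fold change was -0.31 ± 0.07 (adjusted p = 0.000118, edgeR). Spry2 had 26.9, 42.6 and 53.0 CPM in vehicle mice against 46.0, 54.5 and 65.5 CPM in control mice, with -0.34 ± 0.08 (adjusted p = 0.000628). For both genes all 16 vehicle mice lay below the control median. Spry4 ran against them, with 21.4, 36.4 and 56.2 CPM in vehicle mice against 21.1, 26.9 and 35.02 CPM in control mice, and a log2 fold change of 0.38 ± 0.16 (adjusted p = 0.0391), higher than the control median in 14 of 16 vehicle mice. The call of Spry4 was lost in 14 of 43 fits that left out 1 library (vehicle 2, 6, 8, 14, 15 or 16, control 1, 3, 5, 7, 8 or 10, nintedanib 12 or 14; adjusted p = 0.0562 to 0.105), and in series A alone the change was 0.19 (adjusted p = 0.357).

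Of the phosphatases, Dusp4 had 11.4, 16.3 and 25.3 CPM in vehicle mice against 16.1, 22.3 and 29.1 CPM in control mice, a log2 fold change of -0.43 ± 0.10 (adjusted p = 0.000505, edgeR), lower than the control median in 15 of 16 vehicle mice. Dusp5 had 9.52, 13.1 and 23.6 CPM in vehicle mice against 8.49, 10.8 and 16.3 CPM in control mice, with a log2 fold change of 0.35 ± 0.14 (adjusted p = 0.0323). That call was lost without any 1 of 11 libraries (vehicle 2, 4 or 6, control 2, 3, 5, 6, 7, 8, 9 or 10; adjusted p = 0.0522 to 0.102). Dusp6 had 99.3, 128 and 194 CPM in vehicle mice against 98.0, 118 and 130 CPM in control mice, and its log2 fold change of 0.19 did not pass (95% interval -0.04 to 0.41, adjusted p = 0.149).

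Without the 8 control libraries that held Adipoq, Etv4 and Spred2 alone kept their calls among the members, and the adjusted p of the 6 others ran from 0.0629 (Spred1) to 0.521 (Spry4). That fit has 2 control mice, with 3654 genes called in place of 8585. Within name series, the 8 called members had the same sign in A, with 9 control mice, and in C, with 1. For Etv4 the difference was 2.76 on the log2 scale in A and 3.92 in C, and for Spry4 it was 0.18 in A and 1.18 in C.

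Genes of the wider pathway were also called in both directions between vehicle and control mice. Their counts stand beside 57.9% of all tested genes called there, 29.5% higher and 28.3% lower. Of 15 ERK output genes 8 rose and 3 fell, with a median log2 fold change of 0.20, among them the cyclin gene Ccnd1 (0.85, adjusted p = 1.82e-10, edgeR), Egr2 (1.48, 1.41e-08), Myc (0.96, 2.49e-08) and Phlda1 (0.75, 7.06e-08). Of 7 other phosphatases 1 rose, Dusp9 (0.50), and 3 fell, Dusp1 (-0.74), which encodes a stress-induced phosphatase, Dusp8 (-0.43) and Dusp16 (-0.16). Spred3 rose (0.63) and Etv1 fell (-0.34). In the Ras-ERK cascade 7 of 21 genes rose and 5 fell, with Shc1 at 0.35, Nras at 0.25 and Map2k1, the gene of a MEK kinase, at 0.19. Of the 9 receptors 6 fell and 0 rose, led by Kdr (-1.05), the main VEGF receptor of blood vessels, with Flt1 (-0.68), Fgfr3 (-0.68) and Fgfr4 (-1.19).

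Markers of several cell types differed between these groups together with the members. Endothelial markers summed to 2556 CPM (1524 to 3785) in vehicle mice and 4151 CPM (3712 to 4917) in control mice, with 7 of 9 called lower. Alveolar fibroblast markers summed to 3143 CPM (1723 to 5218) in vehicle mice and 6220 CPM (5545 to 6692) in control mice, with 5 of 6 called lower. Activated fibroblast markers summed to 4652 CPM in vehicle mice and 1296 CPM (1167 to 1411) in control mice, with 5 of 6 called higher, and macrophage markers to 12450 CPM in vehicle mice and 5823 CPM (5309 to 6811) in control mice, with 6 of 6 called higher. Adipocyte markers summed to 5.18 CPM in vehicle mice and 205.5 CPM (8.87 to 1596) in control mice, with 5 of 5 called lower. Of the other lists, 4 of 5 smooth muscle, 4 of 7 T and B cell, 7 of 8 airway and 2 of 6 alveolar type 1 markers were called lower, and 4 of 8 alveolar type 2 and 1 of 6 alveolar type 1 markers higher. Their part in the changes of the members was not tested.

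The third comparison, nintedanib mice against control mice, shares its controls with the second and its nintedanib mice with the first. Etv4 and Spred1 were higher in treated mice than in control mice, and Spry1, Spry2, Spry4, Spred2 and Dusp4 were lower. Of the 10 members 7 were called, 2 higher and 5 lower, at a background of 53.2% (28.1% higher, 25.1% lower), with a median log2 fold change of -0.26 beside -0.00518 over all tested genes. Spry4 was lower than in control mice, at -0.63 ± 0.16 (adjusted p = 0.000734, edgeR), with 14 of 17 nintedanib mice below every control mouse. Its estimate in vehicle mice lay on the other side of control, but that call was lost in 14 of 43 fits that left out 1 library. Spry1 fell by 0.46 ± 0.07 (adjusted p = 2.24e-07), and all 17 nintedanib mice lay below all 10 control mice. It ranked 1078 by p among all tested genes, and other genes without overlap were not counted. Dusp4, with 10.3, 14.8 and 18.5 CPM in nintedanib mice, fell by 0.60 ± 0.10 (adjusted p = 4.98e-06), below the control median in 17 of 17.

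Spred2 fell by 0.38 ± 0.06 (adjusted p = 1.29e-06, edgeR) and Spry2 by 0.32 ± 0.08 (adjusted p = 0.0012), while Spred1 rose by 0.30 ± 0.06 (adjusted p = 3.07e-05), each close to its value in vehicle mice against control. Etv4 was higher by 2.51 ± 0.41 (adjusted p = 1.8e-06), above the control median in 17 of 17 mice and above every control mouse in 16. Dusp5 gave -0.01 (95% interval -0.29 to 0.27), Dusp6 -0.19 (-0.41 to 0.03, adjusted p = 0.146) and Etv5 0.06 (-0.20 to 0.32). Without the libraries that held Adipoq, the calls of Spry2 (adjusted p = 0.182) and Spred1 (0.123) ended. Within name series A and C, each of the 7 called members had the same sign as in the whole set.

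Counts of the other pathway genes stand beside 53.2% of all tested genes called between nintedanib and control mice, 28.1% higher and 25.1% lower. Of 15 ERK output genes 6 were higher and 5 lower in nintedanib mice than in control mice. Among them were Ccnd1 at 0.76, Myc at 0.74, Egr2 at 1.05 and Egr1 at -1.97 on the log2 scale. Among 7 other phosphatases 1 was higher, Dusp9 (0.59), and 3 were lower, Dusp1 (-1.08), Dusp2 (-0.82) and Dusp8 (-0.43). Spred3 was higher (0.45) and Etv1 lower (-0.34). In the cascade 7 of 21 were higher and 3 lower, with Shc1 at 0.34, Nras at 0.22 and Mapk3 at -0.22, and of 9 receptors 7 were lower, with Kdr at -1.26, Fgfr4 at -1.09, Flt1 at -0.73 and Flt4 at -0.57. Beside these values, endothelial markers summed to 2608 CPM in nintedanib mice and 4151 CPM in control mice, with 9 of 9 called lower, and activated fibroblast markers to 3651 CPM in nintedanib mice and 1296 CPM in control mice, with 5 of 6 called higher. Called higher were also 8 of 8 alveolar type 2, 5 of 6 macrophage and 2 of 6 alveolar type 1 markers. Called lower were 4 of 6 alveolar fibroblast, 2 of 6 alveolar type 1, 1 of 5 smooth muscle, 4 of 7 T and B cell, 3 of 8 airway and 4 of 5 adipocyte markers. Their part was not tested.

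How members varied together from mouse to mouse was read within each group, over 45 pairs a group, as Pearson's r of log2 CPM with two-sided permutation p-values adjusted over the pairs. By Pearson's r 2 pairs were called in nintedanib mice, 3 in vehicle mice and 0 in control mice, and by Spearman's rho 1, 1 and 0. Spry4 with Dusp6 was the pair called by both measures in the nintedanib and in the vehicle group. In nintedanib mice (n = 17) r was 0.85 (permutation p = 0.00011, adjusted 0.00495) and rho 0.77 (permutation p = 0.00058, adjusted 0.0261), and r was 0.75 without the 2 mice farthest from the Spry4 median. In vehicle mice (n = 16) r was 0.77 (permutation p = 0.0004, adjusted 0.0106), rho 0.77 (permutation p = 0.00069, adjusted 0.031) and the trimmed r 0.61. In control mice (n = 10) r was 0.77 (permutation p = 0.0166, adjusted 0.262), rho 0.70 (permutation p = 0.0307, adjusted 0.565) and the trimmed r 0.88. The value was thus of similar size in each group, and missed the threshold in the smallest.

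The 3 nintedanib mice whose Spry4 lay within the vehicle range (replicates 2, 8 and 10, at log2 CPM of 4.90, 5.06 and 4.92) had Dusp6 at 7.12, 7.07 and 7.34, and with replicate 11 (7.08) they were the 4 highest nintedanib mice for Dusp6. Without those 3 mice the nintedanib r of Spry4 with Dusp6 was 0.60 over 14 mice. In series A alone r was 0.90 over 13 nintedanib mice and 0.73 over 11 vehicle mice (adjusted permutation p = 0.00135 and 0.195). Without the Adipoq libraries r was 0.81 over 12 nintedanib mice (adjusted permutation p = 0.0669), with rho of 0.54 and a trimmed r of 0.39.

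**Figure D3:**
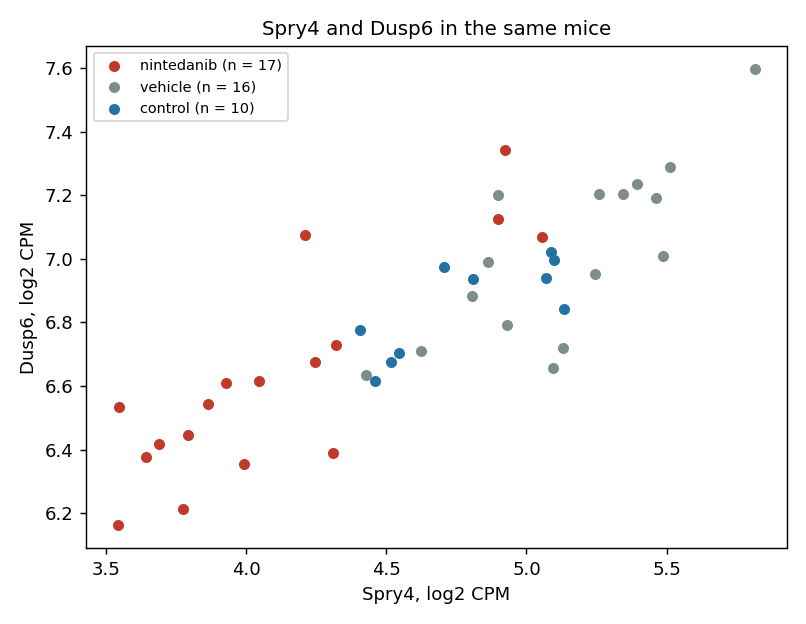
Dusp6 against Spry4 as log2 CPM, 1 point a mouse, in nintedanib (n = 17), vehicle (n = 16) and control mice (n = 10). The points slope upward in each group, with r of 0.85 in nintedanib, 0.77 in vehicle and 0.77 in control mice, and most nintedanib mice sit at the low end of both axes.

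The other called pairs passed by Pearson's r and not by Spearman's rho. In nintedanib mice Etv4 and Etv5 were inversely related, with r of -0.72 (permutation p = 0.00107, adjusted 0.0241), rho of -0.61 (adjusted 0.13) and a trimmed r of -0.54. In vehicle mice Spry1 and Spry2 had r of 0.83 (permutation p = 0.00047, adjusted 0.0106), rho of 0.63 (adjusted 0.146) and a trimmed r of 0.52, and Spry2 and Etv5 had r of 0.77 (permutation p = 0.00146, adjusted 0.0219), rho of 0.57 (adjusted 0.146) and a trimmed r of 0.46. Vehicle replicate 4 was the lowest of its group for Spry1, Spry2 and Etv5 and the highest for Etv4 and Dusp5. The same library had the lowest mean marker level of alveolar type 2 cells, alveolar type 1 cells and endothelium in its group and the highest of activated fibroblasts. Without it, Spry1 with Spry2 had r of 0.60 and Spry2 with Etv5 0.52 over 15 mice, whereas Spry4 with Dusp6 had 0.78.

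Relations of the 10 members to 10 lists of cell markers were computed in the same way, 100 a group, each list as the mean log2 CPM of its genes. Adjusted over these, 5 were called by Pearson's r in nintedanib mice, 15 in vehicle mice and 0 in control mice, and by Spearman's rho 2, 3 and 0. In vehicle mice Spry1 with alveolar type 1 markers had r of 0.84 (permutation p = 0.00227, adjusted 0.0286), rho of 0.66 (adjusted 0.0684), a trimmed r of 0.45 and 0.47 without replicate 4. With alveolar fibroblast markers Spry1 had r of 0.77 there (permutation p = 0.00018, adjusted 0.00633) and rho of 0.71 (adjusted 0.0538). The trimmed r was 0.62, and r was 0.69 without replicate 4. Etv5 followed the alveolar type 2 markers most closely. Its r was 0.93 in nintedanib mice (n = 17, rho 0.88, trimmed r 0.90, series A 0.95) and 0.95 in vehicle mice (n = 16, rho 0.89, trimmed r 0.84, series A 0.95, 0.89 without replicate 4), each with a permutation p of 1e-05, the smallest these permutations can give, and an adjusted p of 0.001. In control mice r was 0.82 (permutation p = 0.00354, adjusted 0.354) and the trimmed r 0.56. Between the groups these markers summed to 37570 CPM (22300 to 51030) in nintedanib mice, 31420 CPM (14290 to 51390) in vehicle mice and 27260 CPM (24290 to 32500) in control mice. Of the 8 markers, 0 were called between nintedanib and vehicle mice, 4 were called higher between vehicle and control mice, and 8 of 8 were called higher between nintedanib and control mice, while Etv5 itself passed in none of the 3 comparisons.

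Etv4 followed the activated fibroblast markers in vehicle mice, with r of 0.79 (n = 16, permutation p = 0.00019, adjusted 0.00633), rho of 0.79, a trimmed r of 0.80 and 0.76 in series A. In nintedanib mice r was 0.68 (n = 17, permutation p = 0.00318, adjusted 0.053), with a trimmed r of 0.47 and 0.87 in series A, and in control mice -0.38 (permutation p = 0.283, adjusted 0.951). In vehicle mice it ran against the alveolar fibroblast markers, with r of -0.78 (permutation p = 0.0004, adjusted 0.01), rho of -0.79 (adjusted 0.0163) and a trimmed r of -0.79. In nintedanib mice that r was -0.58 (permutation p = 0.0144, adjusted 0.131). With the alveolar type 2 markers Etv4 had r of -0.77 in nintedanib mice (permutation p = 0.00032, adjusted 0.0107), with rho of -0.68 (adjusted 0.0865) and a trimmed r of -0.62. In vehicle mice it had -0.63 (permutation p = 0.00706, adjusted 0.0491), with rho of -0.58 (adjusted 0.168) and a trimmed r of -0.49. Dusp5 followed macrophage markers in nintedanib mice, with r of 0.81 (permutation p = 0.00012, adjusted 0.006) and a trimmed r of 0.74, and had r of 0.31 in vehicle mice. Whether r differed between groups was not tested. Spry4 was not called with any marker list. Its r farthest from 0 in both bleomycin groups was with T and B cell markers, at -0.56 in nintedanib mice (permutation p = 0.0209, adjusted 0.161), -0.57 in vehicle mice (permutation p = 0.0199, adjusted 0.0905) and -0.41 in control mice (permutation p = 0.24, adjusted 0.951). With endothelial markers its r was 0.43 in nintedanib mice (permutation p = 0.0845, adjusted 0.283), 0.24 in vehicle mice (permutation p = 0.368, adjusted 0.558) and 0.28 in control mice (permutation p = 0.425, adjusted 0.951).

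**Figure D4:**
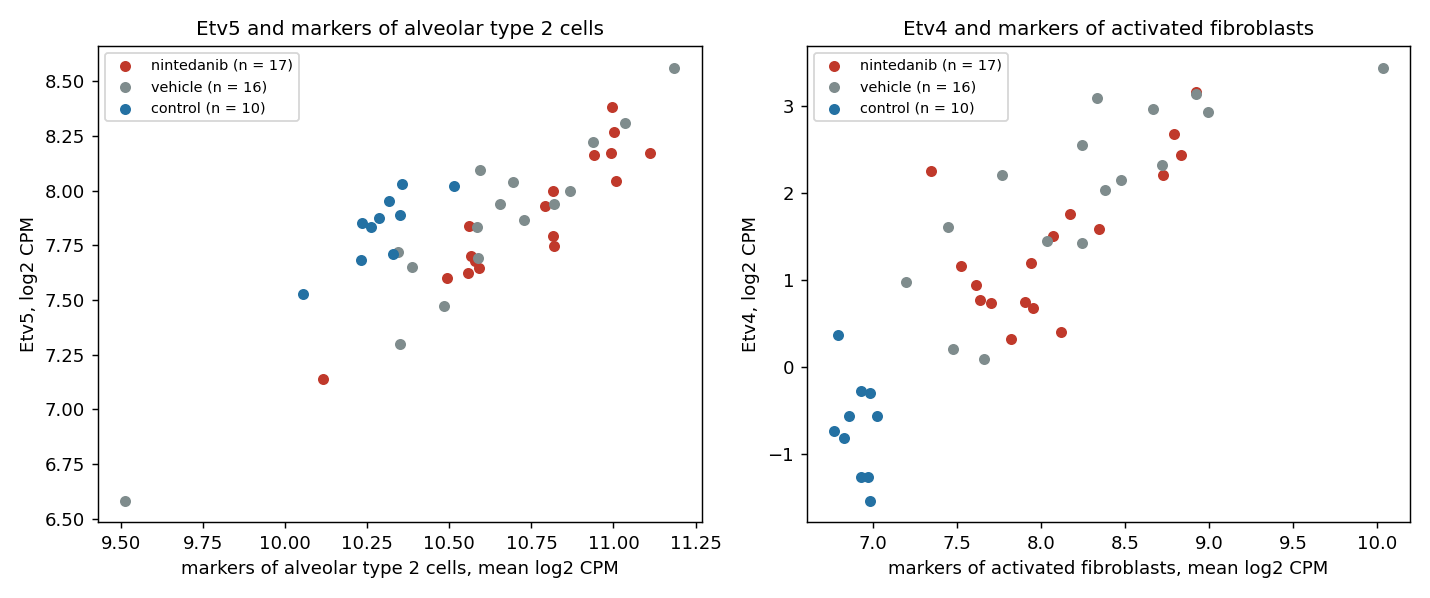
Etv5 against the mean log2 CPM of 8 alveolar type 2 markers (left) and Etv4 against that of 6 activated fibroblast markers (right), 1 point a mouse, by group. Etv5 runs along the type 2 markers, with r of 0.93 in nintedanib, 0.95 in vehicle and 0.82 in control mice. Etv4 rises with the fibroblast markers in vehicle mice (r of 0.79), with r of 0.68 in nintedanib and -0.38 in control mice. The Etv5 relation in control mice and the Etv4 relations in nintedanib and control mice were not called.

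The genes whose pattern was most like each member were taken over all 43 mice, with each value centred on its group mean, among 12156 genes of at least moderate level. These r values describe the likeness and carry no test. Etv5 was closest to Sftpb (r = 0.92), Dram1 (0.91) and Slc34a2 (0.90), of which Sftpb and Slc34a2 encode a surfactant protein and a phosphate transporter of type 2 cells. Sftpb and Slc34a2 are also in the alveolar type 2 marker list related to Etv5 above, so they repeat that relation. Etv4 was closest to Fscn1 (0.84), the gene of an actin-bundling protein, Dkk2 (0.84) and Vasp (0.83). Spry4 was closest to Vwf (0.71), the von Willebrand factor of endothelium, Maff (0.69) and Nde1 (0.69), and Dusp6 to Pde4b (0.78), Ccn2 (0.71) and Fkbp14 (0.71). Between nintedanib and vehicle mice, the nearest gene of each, Vwf (0.07, adjusted p = 0.782, edgeR) and Pde4b (0.05, 0.869), did not pass. Values of their other nearest genes in that comparison are not given here. The part of endothelial or other cells in the fall of Spry4 and Dusp6 was not tested.

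Among the remaining members, Spry1 was closest to Pde8b (0.79), Epb41l4b (0.79) and Casz1 (0.78), and Spry2 to Ids (0.74), Jun (0.73) and Tppp (0.72). Spred1 was nearest Bzw1 (0.73), Rgs4 (0.70) and Golt1b (0.69), and Spred2 was nearest Hyal2 (0.73), Clic4 (0.72) and St3gal2 (0.69). Dusp4 lay nearest Vstm4 (0.68), Orai2 (0.64) and Lamb1 (0.64), and Dusp5 nearest Tnip2 (0.68) and Pstpip2 (0.66). No 2 members shared a gene among their 3 nearest.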

How the data were processed

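RNA of the inferior lung lobe was sequenced in 43 libraries, single-end and with a directional kit, per the labels' protocols. The deposited table, as the authors made it, holds whole-number counts, 1 line a gene and 1 column a library. The submitters' processing notes list GRCm38, STAR 2.7.0f and R 3.6.0 without roles. How reads were counted, with which strand setting and which filter, is not given in the sources used here. Symbols, coordinates and exon lengths came from the GENCODE annotation of GRCm38, and promoter sequence from RefSeq.

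The members, gene lists and alternatives were chosen with earlier results of these data known. Genes were kept with filterByExpr of edgeR (minimum count 10, minimum total 15), which left 99.96% of counts. The quasi-likelihood F test of edgeR was two-sided and robust, with TMM factors, 1 coefficient a group and all 43 libraries. P-values were adjusted by Benjamini-Hochberg over 14836 genes at 0.05, and the test was tested on simulated data. Per gene, the biological coefficient of variation had a median of 13.6%. Depth limits Etv4 most, with 4 to 20 counts in a control library. Correlations used 100000 permutations.

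Named pathway genes are up to 4 of a list with the smallest p past the threshold, and all list counts are given. Some genes that these naming rules picked are not reported here. The name series were treated as possible batches, since the labels do not say what they mean. Alternatives were RLE factors, library totals, no filter, DESeq2, only the 2 groups compared, the name series as a covariate or series A alone, libraries under 1 CPM of Adipoq, and 2 surrogate variables. Added after seeing the data were each library left out in turn and the correlations without libraries that stood apart. Software was Python 3.11.15 with SciPy 1.17.1, NumPy 2.4.6, pandas 2.3.3 and matplotlib 3.10.9, and R 4.3.3 with sva 3.50.0, DESeq2 1.42.0, edgeR 4.0.16 and limma 3.58.1.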

Additional observations from a re-analysis of the deposited data

Results flagged for a closer look

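In the control group, the 10 members were each examined for a mouse far from the others of its group (the larger groups were not examined in this way), and 1 value stood out. Dusp5 in control replicate 4 was the highest control value, at a log2 CPM of 4.04, and the nearest other control mouse had 3.57. The gap was 0.503 of the range of the 10 control mice, above the 95% limit of Dixon's test for a group of this size. Chance passes this limit in about 1 of 20 groups. Without this library the log2 fold change of Dusp5 in nintedanib against control mice was 0.03, beside -0.01 with it.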

How the results depend on the processing

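Over 9 alternatives, 237 of 270 member values kept their direction and their side of the threshold, 17 lost a call, 5 gained one and 11 changed sign. Spry4 kept its fall under nintedanib in all of them (-1.08 to -0.79). The number of members called for nintedanib against vehicle was 2, and 1 in series A alone and 1 without the Adipoq libraries. A call was added for Dusp5 with DESeq2 and with library totals, and for Spry1 with 2 surrogate variables. For vehicle against control the number was 8, and 2 without the Adipoq libraries, which leaves 2 control mice. Other alternatives there lost the call of Spry4 or of both Spry4 and Dusp5. For nintedanib against control the number stayed within 1.5 times of 7. Leaving out 1 library at a time gave 2 to 3, 6 to 8 and 7 to 8 members called in these 3 comparisons. Correlated pairs in nintedanib mice numbered 2, and 0 without the Adipoq libraries and 1 in series A. In vehicle mice they numbered 3, and 0 in series A; for control mice the fit without Adipoq libraries was not run, with 2 mice left. The cause of these differences was not tested. Sign changes touched only estimates near 0 that never passed. For nintedanib against vehicle, Spry2 was -7.47e-05 with library totals and -0.045 with 2 surrogate variables, Etv5 -0.089 with 2 surrogate variables, and Spred2 0.034 in series A. Etv5 against control was -0.013 with library totals in vehicle mice and -0.0097 in nintedanib mice, and for vehicle mice -0.0077 in series A and -0.094 without the Adipoq libraries. Dusp5 for nintedanib against control was 0.0044 with the series as covariate, 0.024 in series A and 0.047 without the Adipoq libraries. Leaving out 1 library, signs changed for nintedanib against vehicle in Spry2 (-0.020 to 0.041), Spred2 (-0.035 to 0.012) and Etv5 (-0.040 to 0.079), for vehicle against control in Etv5 (-0.021 to 0.066), and for nintedanib against control in Dusp5 (-0.083 to 0.032) and Etv5 (-0.0052 to 0.098). Without nintedanib replicate 10, Dusp6 was called lower than control (adjusted p = 0.0431), as with library totals (0.0396) and 2 surrogate variables (0.0418). Spry4 lost its call against control in vehicle mice also with library totals (0.0668), no filter (0.0512), the series as covariate (0.0592) and 2 surrogate variables (0.516), and Dusp5 with library totals (0.0542) and 2 surrogate variables (0.59).

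Over all genes, 1084 were called for nintedanib against vehicle, against 640 with only the 2 groups fitted and 525 without the Adipoq libraries. For vehicle against control 8585 became 3654, and for nintedanib against control 7888 became 3297, without the Adipoq libraries. The split of calls for nintedanib against vehicle was 476 higher and 608 lower, and 369 and 813 with library totals and 624 and 502 with 2 surrogate variables; for nintedanib against control, 4171 and 3717 became 3250 and 4844 with library totals. No paired analysis was possible because the labels give no replicate numbers; numbers here only name libraries in accession order. At these depths Etv4 in control mice is measured from few counts.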
